A study of Homo sapiens with 6 samples.

Results

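The genes described here are 10 sensors of nucleic acids in the cytosol or endosome and the adaptors and kinase through which they signal: DDX58 (RIG-I), IFIH1 (MDA5), DHX58 (LGP2), TLR3, EIF2AK2 (PKR), ZBP1, MB21D1 (cGAS), MAVS, TMEM173 (STING) and TBK1. They were chosen by gene symbol, and all 10 were found among the 58174 genes listed for each sample. The samples were T24 cells, an established human bladder cancer line, that carried a lentiviral pLKO.1 shRNA and had been selected with puromycin. In 3 samples the hairpin was a scrambled control (shRNA-NC) and in 3 it targeted UBC9 (shRNA-UBC9), the conjugating enzyme of the SUMO pathway, so the controls also carried a vector and an shRNA. The knockdown rests on 1 hairpin, and no source used here says that the 3 samples of a group were separate cultures. The p-values therefore measure only the spread between these samples, which may be technical. In bulk RNA, more expressing cells and more RNA per expressing cell cannot be told apart.

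Cells detect viral or misplaced nucleic acids with a small set of receptors. DDX58 and IFIH1 are helicases that bind double-stranded RNA in the cytosol and pass the signal to MAVS on the mitochondrial surface, DHX58 is a regulatory helicase of that family and lacks the signalling domain, and TLR3 senses double-stranded RNA in endosomes. EIF2AK2 is a kinase that, on binding double-stranded RNA, phosphorylates the translation factor eIF2α, and ZBP1 binds left-handed nucleic acids and can start necroptosis. MB21D1 is activated by cytosolic DNA and makes the cyclic dinucleotide that activates TMEM173. MAVS, TMEM173 and the TLR3 adaptor TICAM1 use TBK1 or its relative IKBKE to activate the interferon regulatory factors. Several of the sensors are themselves interferon-stimulated genes.

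Expression was given as RPKM, that is, reads relative to gene length and to all mapped reads of a sample, which allows levels to be compared between genes. The depth of the 6 samples relative to shRNA-NC replicate 1 ranged from 0.945 to 1.21, and between 18059 and 19725 genes per sample had a value above 0. A change was tested with limma on log2(RPKM + 0.1), and genes were said to rise or fall where the Benjamini-Hochberg adjusted p was below 0.05. A gene was called a DEG where its log2 fold change also exceeded 1 in size. The keratins KRT7, KRT8, KRT18 and KRT19, markers of epithelium, were high in every sample, with a sum over the 6 epithelial markers of 938.1 to 1108.0 RPKM in shRNA-NC and 425.8 to 563.5 RPKM in shRNA-UBC9. EPCAM was low and did not follow the keratins, at 0.412 to 0.986 RPKM in shRNA-NC and 0.732 to 2.51 RPKM in shRNA-UBC9 (adjusted p = 0.0984 by limma). CDH1 reached at most 0.00449 RPKM, and the 4 uroplakins, markers of differentiated urothelium, summed to at most 0.209 RPKM. The 7 leukocyte markers summed to 0.675 to 0.977 RPKM in shRNA-NC and 0.758 to 1.08 RPKM in shRNA-UBC9. The 5 fibroblast markers summed to 0.978 to 1.32 and 0.882 to 1.27 RPKM, and the 4 endothelial markers, mostly CDH5, to 2.64 to 3.26 and 0.338 to 1.07 RPKM. Within the fibroblast sum PDGFRB was lower and COL1A1 higher in shRNA-UBC9 (log2 fold changes -1.48 and 0.955). PDGFRB passed the filter for testing (at least 0.5 RPKM in at least 3 samples) only through shRNA-NC, so it had to be lower in shRNA-UBC9. COL1A1 reached 0.535 RPKM in replicate 2 of shRNA-NC but also needed its shRNA-UBC9 samples to pass. These 2 changes are therefore no support. The part of the keratin, fibroblast and endothelial marker changes in the results was not tested.

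The sequence before the transcription start of 4 sensors is shown because these promoters held letters of motifs that interferon-activated factors or NF-κB are known to bind. The sequences are RefSeq's (GRCh38.p14), whose promoter table held 6 of the 10 genes, and each runs 5′ to 3′ on the gene's strand from 180 bases before the start to 10 bases after it. Capitals mark an interferon-stimulated response element (ISRE, GAAANNGAAA or its reverse complement) or a κB element (GGGANNTTCC or its reverse complement). The EIF2AK2 window is chr2:37156971-37157160 (minus strand), that of IFIH1 chr2:162318675-162318864 (minus), that of TLR3 chr4:186068976-186069165 (plus) and that of DDX58 chr9:32526187-32526376 (minus).
EIF2AK2: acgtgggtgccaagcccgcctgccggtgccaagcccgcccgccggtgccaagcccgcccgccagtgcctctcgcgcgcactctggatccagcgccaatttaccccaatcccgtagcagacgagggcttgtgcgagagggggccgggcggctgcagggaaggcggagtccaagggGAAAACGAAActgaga
IFIH1: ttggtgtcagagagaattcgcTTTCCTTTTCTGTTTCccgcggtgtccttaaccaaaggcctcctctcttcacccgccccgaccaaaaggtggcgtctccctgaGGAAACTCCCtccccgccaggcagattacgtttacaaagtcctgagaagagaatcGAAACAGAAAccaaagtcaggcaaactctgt
TLR3: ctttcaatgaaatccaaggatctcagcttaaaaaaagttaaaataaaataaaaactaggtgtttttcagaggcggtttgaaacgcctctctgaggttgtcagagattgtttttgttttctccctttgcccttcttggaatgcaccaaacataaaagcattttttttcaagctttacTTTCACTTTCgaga
DDX58: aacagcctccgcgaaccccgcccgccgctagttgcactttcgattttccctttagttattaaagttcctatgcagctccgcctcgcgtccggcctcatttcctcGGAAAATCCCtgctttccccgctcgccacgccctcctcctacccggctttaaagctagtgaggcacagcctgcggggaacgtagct

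The ISRE letters were found in 3 of the 6 promoters available. In EIF2AK2 they span positions -6 to 4 around the start. IFIH1 holds them 3 times, at -21 to -12 and, on the other strand, in an overlapping pair that begins at -159 and -153. In TLR3 they lie at -4 to 6 on the other strand. The κB letters begin at -76 in both IFIH1 and DDX58. The search covered 300 bases of each promoter, from 250 before the start to 50 after it. Over 35116 RefSeq promoters of that length, 3.57% held the ISRE letters and 1.61% the κB letters, on either strand. The κB spelling was written down after the windows had been read. Another motif, GAS (TTCNNNGAA, the same on both strands), was found in TLR3 alone among the 6, at -178 and -50, and in 7.66% of all promoters. The promoters of MAVS and TBK1 held none of these letters in their 300 bases.

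Of the 10 genes, 9 passed the expression filter and were tested, each with at least 0.5 RPKM in all 6 samples. Among them 5 were DEGs, all higher in shRNA-UBC9 (DDX58, IFIH1, DHX58, EIF2AK2 and TMEM173), against 5.2% of all 12428 tested genes called higher, 2.7% called lower and 7.89% called in either direction. By the adjusted p alone 8 rose, where 18.8% of all tested genes did, and MAVS fell, where 18% did. The median log2 fold change of the 9 genes was 1.02, and that of all tested genes 0.005. In 8 of the 9 every shRNA-UBC9 sample lay above every shRNA-NC sample, which was the case for 25.7% of all tested genes, and in MAVS every one lay below, as in 25.4%. ZBP1, the untested gene, was also higher in all 3 knockdown samples.

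**Figure D1:**
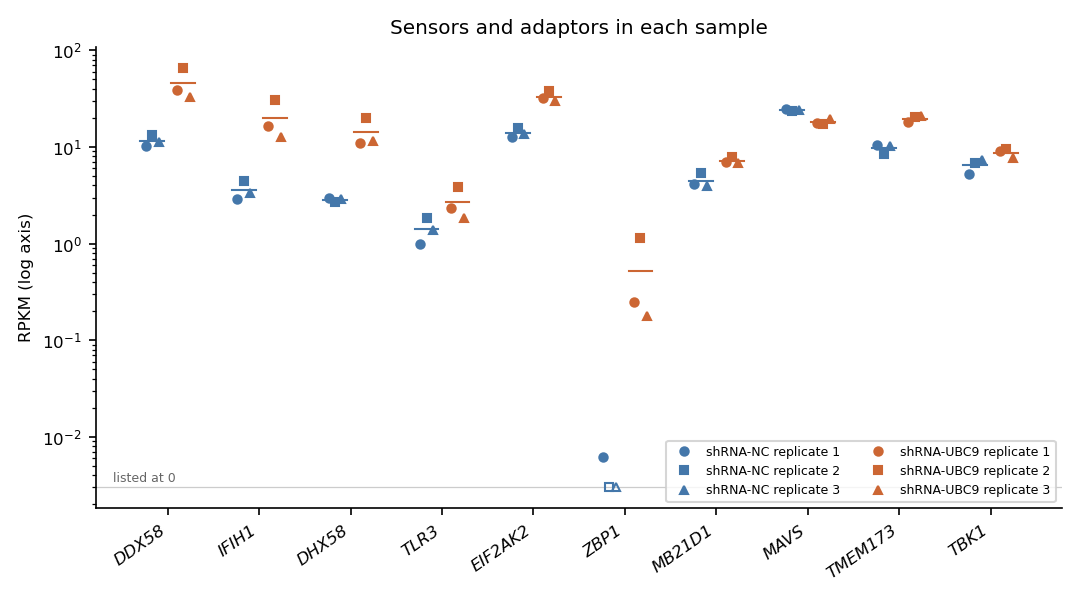
RPKM (log axis) of the 10 genes in each of the 3 shRNA-NC (blue) and 3 shRNA-UBC9 (orange) samples, with marker shape for the replicate number, short lines for group means (not drawn for ZBP1 in shRNA-NC) and open markers for values listed at 0. The groups are apart in all 10 genes, in TLR3 only just, and MAVS is the gene that is lower in shRNA-UBC9. Of all tested genes 25.7% are apart with shRNA-UBC9 higher and 25.4% with it lower. Squares (replicate 2) stand highest in shRNA-UBC9 for DDX58, IFIH1, DHX58, TLR3 and ZBP1.

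The RIG-I-like receptors rose the most among the tested sensors. DDX58 (chr9:32455302-32526208, minus strand, in GENCODE 44 coordinates on GRCh38 as for all genes) measured 10.3, 13.4 and 11.1 RPKM in shRNA-NC and 38.4, 65.8 and 32.8 RPKM in shRNA-UBC9. Its lowest knockdown sample was well above its highest control, and replicate 2 was the highest of each group. The log2 fold change was 1.91 (SE 0.24, 95% interval 1.37 to 2.45, adjusted p = 0.000718 by limma), a 3.75-fold difference. IFIH1 (chr2:162267074-162318684, minus strand) measured 2.89, 4.46 and 3.30 RPKM in shRNA-NC and 16.5, 31.0 and 12.7 RPKM in shRNA-UBC9. The order of the replicates was that of DDX58, with replicate 2 highest in both groups. Its log2 fold change of 2.39 (SE 0.30, interval 1.70 to 3.08, adjusted p = 0.000806) was the largest of the 9 tested genes and ranked 145 among all tested genes. DHX58 (chr17:42101404-42112714, minus strand), the regulatory member, measured 2.95, 2.70 and 2.90 RPKM in shRNA-NC and 11.0, 19.9 and 11.5 RPKM in shRNA-UBC9. The controls of DHX58 differed little, while replicate 2 of shRNA-UBC9 stood above the other knockdown samples. The log2 fold change was 2.22 (SE 0.21, interval 1.75 to 2.69, adjusted p = 0.000221).

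The balance between these receptors was not the same in the groups' samples. Of the summed RPKM of the 3, DDX58 made up 64.0% to 65.1% in shRNA-NC and 56.4% to 58.3% in shRNA-UBC9. The share of DHX58 overlapped between the groups, at 13.2% to 18.2% in shRNA-NC and 16.7% to 20.2% in shRNA-UBC9. The ratio of IFIH1 to DDX58 within a sample was 0.279, 0.334 and 0.296 in shRNA-NC and 0.430, 0.471 and 0.389 in shRNA-UBC9, with no overlap. For DHX58 to DDX58 it was 0.285, 0.202 and 0.260 against 0.287, 0.303 and 0.352, so that the nearest samples of the groups were almost level. DDX58 remained the most abundant of the 3 in every sample. These ratios and shares are given as values and were not tested.

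**Figure D2:**
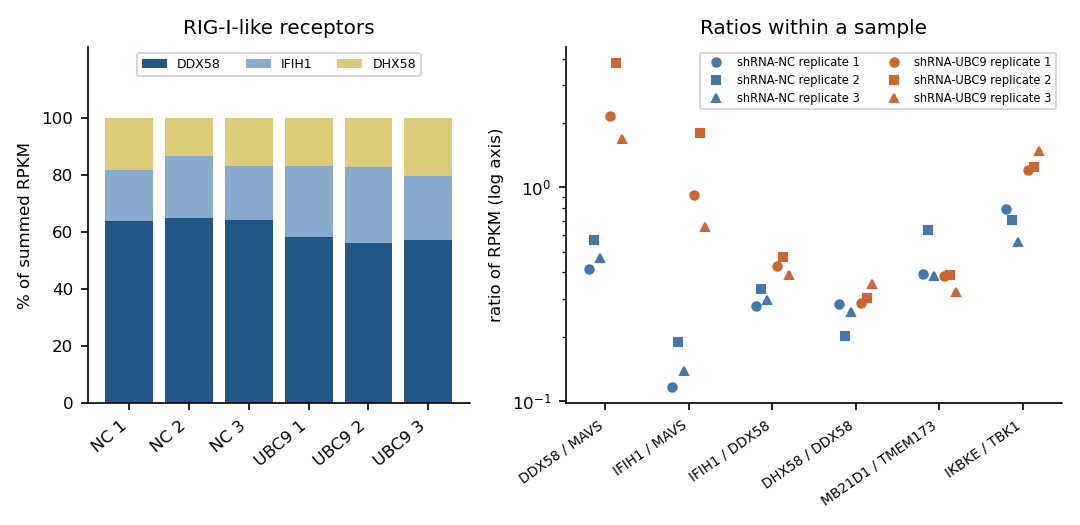
Left, the share of DDX58, IFIH1 and DHX58 in their summed RPKM (%) in each sample. Right, ratios of RPKM within a sample (log axis; blue shRNA-NC, orange shRNA-UBC9, marker shape for the replicate number): DDX58 and IFIH1 over MAVS and IKBKE over TBK1 are apart between the groups, and MB21D1 over TMEM173 overlaps.

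TLR3 (chr4:186068911-186088073, plus strand) was the lowest of the tested genes. It measured 0.992, 1.84 and 1.38 RPKM in shRNA-NC and 2.34, 3.90 and 1.85 RPKM in shRNA-UBC9. The highest control and the lowest knockdown sample were almost the same, at 1.84 and 1.85 RPKM. The log2 fold change was 0.87 (SE 0.29, interval 0.20 to 1.53, adjusted p = 0.0463 by limma), and without replicate 2 of shRNA-UBC9 it was 0.58 with an adjusted p of 0.127. Its adjusted p was above 0.05 in most of the other settings tried. Its adaptor TICAM1 rose from 5.78 ± 0.74 to 11.3 ± 0.23 RPKM (mean ± SD, n = 3), a log2 fold change of 0.97 (adjusted p = 0.000425).

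EIF2AK2 (chr2:37099210-37157522, minus strand) measured 12.6, 15.6 and 13.6 RPKM in shRNA-NC and 31.8, 37.6 and 30.0 RPKM in shRNA-UBC9. The groups were far apart and the replicates of each lay close together. Its log2 fold change was 1.25 (SE 0.12, interval 0.97 to 1.52, adjusted p = 0.000245 by limma), a 2.37-fold difference. GENCODE places exons of other genes over those of 4 of the 10 genes, and the strand setting of the mapping is not given in the sources used here. Over EIF2AK2 lie 35 bases of GPATCH11 (6.58 RPKM in shRNA-NC and 5.36 RPKM in shRNA-UBC9 on average) and 401 bases of ARL14EPP1 on the opposite strand. DDX58 shares 4471 exon bases with a same-strand gene model without a symbol, and TBK1 shares 492 bases with an opposite-strand and 72 with a same-strand model of that kind. For ARL14EPP1 and the models without a symbol no value was matched, so their part in these values was not tested.

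ZBP1 (chr20:57603846-57620576, minus strand) was near 0 in shRNA-NC, at 0.0062, 0 and 0 RPKM, and measured 0.246, 1.16 and 0.177 RPKM in shRNA-UBC9. The low values were whole multiples of what 1 read is worth, so that the smallest whole read numbers in the given ratios were 1, 0 and 0 in shRNA-NC and 48, 220 and 27 in shRNA-UBC9. The ratio of the summed reads per depth was 292, with an exact binomial 95% interval of 51.9 to 11550 that covers counting error only. The gene did not pass the expression filter, so it is not among the DEGs. The exact two-sided permutation test on the log2 scale gave p = 0.1, the smallest that 3 against 3 samples allow. Replicate 2 of shRNA-UBC9 held 220 of the 295 reads of its group, and the other knockdown samples still had 48 and 27 against at most 1 in a control.

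For the DNA sensor MB21D1 (chr6:73413515-73452297, minus strand) the values were 4.11, 5.32 and 3.96 RPKM in shRNA-NC and 6.94, 7.92 and 6.76 RPKM in shRNA-UBC9. The groups did not overlap. The log2 fold change was 0.69 (SE 0.13, interval 0.39 to 0.99, adjusted p = 0.00472 by limma), below the size set for a DEG. DDX43, whose exons overlap those of MB21D1 by 180 bases on the opposite strand, was at 0 in shRNA-NC and averaged 0.0175 RPKM in shRNA-UBC9. TMEM173 (chr5:139475533-139482935, minus strand), the adaptor that MB21D1 activates, measured 10.4, 8.42 and 10.3 RPKM in shRNA-NC and 18.0, 20.2 and 20.8 RPKM in shRNA-UBC9. Unlike the RNA helicases, its knockdown replicates differed little. Its log2 fold change was 1.02 (SE 0.11, interval 0.77 to 1.27, adjusted p = 0.000413), so that its place among the DEGs rests on a size just over 1, and it kept that place in 9 of 15 alternative settings. The ratio of MB21D1 to TMEM173 was 0.396, 0.632 and 0.386 in shRNA-NC and 0.385, 0.391 and 0.325 in shRNA-UBC9, and the groups overlapped.

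MAVS (chr20:3846799-3876123, plus strand), the adaptor of DDX58 and IFIH1, was the gene that fell. It measured 24.8, 23.7 and 24.0 RPKM in shRNA-NC and 17.9, 17.2 and 19.5 RPKM in shRNA-UBC9. The replicates were tight in both groups and did not overlap. The log2 fold change was -0.41 (SE 0.08, interval -0.60 to -0.22, adjusted p = 0.0065 by limma). Without replicate 2 of both groups it was -0.39 with an adjusted p of 0.0606. The ratio of DDX58 to MAVS within a sample was 0.416, 0.565 and 0.465 in shRNA-NC and 2.15, 3.81 and 1.68 in shRNA-UBC9. That of IFIH1 to MAVS was 0.116, 0.189 and 0.138 in shRNA-NC and 0.924, 1.80 and 0.653 in shRNA-UBC9. The RPKM of DDX58 was thus below that of MAVS in every control sample and above it in every knockdown sample.

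TBK1 (chr12:64452090-64502114, plus strand), the kinase shared by the RNA and DNA arms, measured 5.29, 6.84 and 7.29 RPKM in shRNA-NC and 9.06, 9.48 and 7.74 RPKM in shRNA-UBC9. The highest control and the lowest knockdown sample were close. The log2 fold change was 0.44 (SE 0.14, interval 0.12 to 0.75, adjusted p = 0.0373 by limma). This call was kept in only 7 of 15 alternative settings. The related kinase IKBKE rose from 4.35 ± 0.40 to 11.4 ± 0.41 RPKM (mean ± SD, n = 3), a log2 fold change of 1.37 (SE 0.10, adjusted p = 5.3e-05). The ratio of IKBKE to TBK1 was 0.793, 0.703 and 0.556 in shRNA-NC and 1.21, 1.25 and 1.48 in shRNA-UBC9, so that IKBKE was the lower of the pair in every control and the higher in every knockdown sample.

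**Figure D3:**
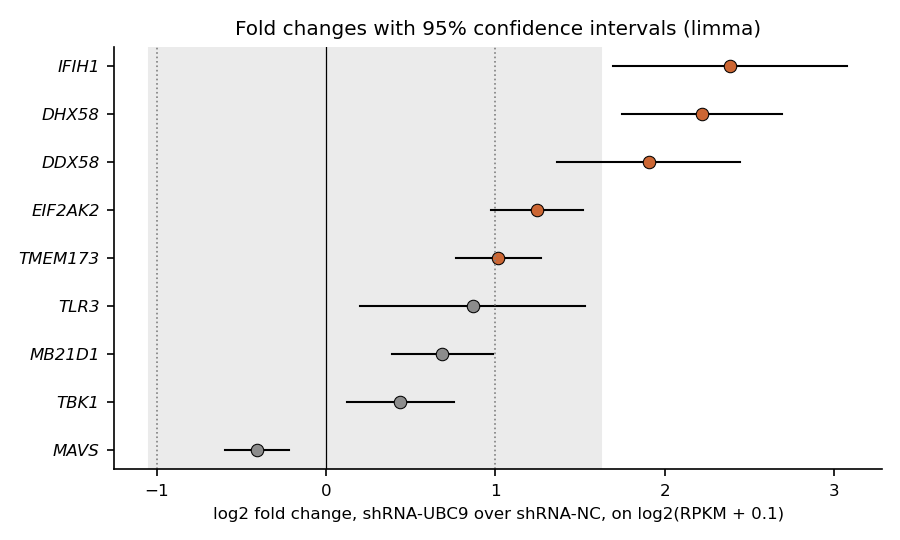
Log2 fold change of the 9 tested genes, shRNA-UBC9 over shRNA-NC on log2(RPKM + 0.1), with bars for the 95% interval of limma, orange for DEGs, dotted lines at the fold change size of 1 and a grey band for the middle 95% of all 12428 tested genes (-1.05 to 1.63). DDX58, IFIH1 and DHX58 lie above the band, EIF2AK2 and TMEM173 lie inside it above 1, and MAVS alone lies below 0.

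The order of the levels changed with the knockdown. In shRNA-NC it was MAVS (24.2 RPKM on average), EIF2AK2, DDX58, TMEM173, TBK1, MB21D1, IFIH1, DHX58, TLR3 and ZBP1. Among these 9 neighbouring pairs, 5 overlapped in range, and MAVS stood above EIF2AK2 without overlap. In shRNA-UBC9 the order was DDX58 (45.7 RPKM), EIF2AK2, IFIH1, TMEM173, MAVS, DHX58, TBK1, MB21D1, TLR3 and ZBP1. Here 6 of the 9 neighbouring pairs overlapped, among them all 5 pairs from DDX58 down to DHX58. Genes farther apart in the order did not all separate. Every DDX58 value was above every value of IFIH1, TMEM173, MAVS and DHX58. The range of IFIH1 (12.7 to 31.0 RPKM) overlapped those of MAVS and DHX58, and that of TMEM173 overlapped that of DHX58. TLR3 and ZBP1 were the lowest in both groups, each apart from the gene above it.

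The RNA helicases, TLR3 and ZBP1 varied more between the knockdown samples than the other genes. The coefficient of variation (SD over mean) in shRNA-UBC9 was 38.6% for DDX58, 48.0% for IFIH1, 35.3% for DHX58, 39.8% for TLR3 and 104% for ZBP1. For EIF2AK2, TBK1, MB21D1, TMEM173 and MAVS it lay between 6.37% and 12.1%. In shRNA-NC it was 13.5% for DDX58, 23.0% for IFIH1, 4.50% for DHX58 and 30.2% for TLR3, and 173% for ZBP1, which had 1 read there. MB21D1, TMEM173 and TBK1 varied more in shRNA-NC than in shRNA-UBC9, with 16.7%, 11.4% and 16.2% against 8.61%, 7.51% and 10.4%. Replicate 2 of shRNA-UBC9 was the highest sample in all 5 of these genes. It exceeded the mean of the other 2 knockdown samples 2.12-fold for IFIH1, 1.87-fold for TLR3, 1.85-fold for DDX58, 1.77-fold for DHX58 and 5.46-fold for ZBP1, but 1.04-fold for TMEM173. Replicate 2 was the highest knockdown sample in 7 of the 9 tested genes and in 30.8% of all tested genes. It was the highest control sample in 5 of the 9 and in 41.2% of all tested genes. Without replicate 2 of shRNA-UBC9 the log2 fold changes were 1.61 for DDX58, 2.02 for IFIH1 and 1.95 for DHX58, and all 3 remained DEGs.

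The other genes of these pathways were listed by role, 95 in all, of which 86 were tested. Of these 17 were DEGs higher and 1 was a DEG lower in shRNA-UBC9, and by the adjusted p alone 35 rose and 11 fell. In shares of the tested genes, 19.8% were DEGs higher and 1.16% lower (5.2% and 2.7% of all tested genes), 40.7% rose (18.8% of all) and 12.8% fell (18% of all). Their median log2 fold change was 0.11. The DEGs were spread over most lists, and the largest changes lay among the products of the pathway. RNF125 and IFNL1 passed the expression filter only through their shRNA-UBC9 samples, so both had to be higher there. CXCL10 reached 0.589 RPKM in replicate 2 of shRNA-NC but also needed its shRNA-UBC9 samples to pass. The place of these 3 in the counts and in the median is no support.

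Of 16 cofactors of RNA sensing, 3 were DEGs, all higher, and 6 rose and 1 fell by the adjusted p, with a median log2 fold change of 0.13. The DEGs were 18.8% of this list, against 5.2% of all tested genes called higher, and 37.5% rose, against 18.8% of all. Both shares of the list and its median include RNF125, which passed the expression filter only through its shRNA-UBC9 samples and so is no support. RNF125, a ubiquitin ligase that limits DDX58 and IFIH1, rose from 0.288 ± 0.024 to 0.831 ± 0.369 RPKM (log2 fold change 1.20, adjusted p = 0.0136). ZNFX1, a helicase that binds double-stranded RNA, rose from 13.6 ± 0.80 to 28.7 ± 6.80 RPKM (log2 fold change 1.05). DDX60, an interferon-stimulated helicase, rose from 11.3 ± 2.80 to 22.9 ± 6.20 RPKM (log2 fold change 1.01). ADAR, which edits double-stranded RNA, rose by 0.73 on the log2 scale from a high level of 44.4 ± 0.43 RPKM (adjusted p = 0.00386). The abundant helicases DHX9 and DDX3X had log2 fold changes of -0.25 and -0.18 and did not pass the test (adjusted p = 0.073 and 0.131).

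Among 19 genes that act downstream of MAVS and TLR3, 2 were DEGs, both higher, and 10 rose and 1 fell by the adjusted p, with a median of 0.27. The DEGs were 10.5% of the list, against 5.2% called higher among all tested genes, while 52.6% rose and 5.26% fell, against 18.8% and 18%. The larger of the 2 was IRF7, the interferon regulatory factor that is itself induced by interferon, which rose from 14.2 ± 1.60 to 84.1 ± 24.8 RPKM (log2 fold change 2.52, SE 0.19, adjusted p = 8.3e-05). The other was IKBKE. OPTN, an autophagy receptor that binds TBK1, rose by 0.96 on the log2 scale (adjusted p = 0.00145), and PCBP2, which targets MAVS for degradation, had -0.18 and did not pass the test (adjusted p = 0.168). FADD, a death domain adaptor, was the gene that fell, by 0.28 on the log2 scale (adjusted p = 0.0308).

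Of 16 genes of DNA sensing and TMEM173 regulation, 14 were tested, with 1 DEG in each direction, 4 that rose and 5 that fell by the adjusted p, and a median of -0.16. The DEGs were 7.14% of the tested genes in each direction, a single gene, against 5.2% higher and 2.7% lower over all tested genes. By the adjusted p 28.6% rose and 35.7% fell, against 18.8% and 18% of all tested genes. IFI16, which binds DNA, rose from 15.5 ± 2.20 to 46.2 ± 18.5 RPKM (log2 fold change 1.51, adjusted p = 0.0023). ENPP1, which degrades the cyclic dinucleotide made by MB21D1, fell from 1.33 ± 0.065 to 0.583 ± 0.256 RPKM (log2 fold change -1.14, adjusted p = 0.0135). XRCC6 and XRCC5, the Ku subunits that bind DNA ends, had log2 fold changes of -0.45 and -0.31 (adjusted p = 0.0104 and 0.0294). SURF4, which returns TMEM173 to the endoplasmic reticulum, rose by 0.33 (adjusted p = 0.0379). AIM2, an inflammasome receptor of DNA, was at 0 in all 3 controls and had 18, 33 and 8 reads in shRNA-UBC9. That is 19.4-fold above a floor of 3 reads over the control group, without the counting error of the knockdown reads. AIM2 was named after its values were seen, so this ratio is no support.

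Of the 8 enzymes that clear nucleic acids, 2 were DEGs, both higher, while 2 rose and 2 fell by the adjusted p. With 8 genes each pair is 25% of the list, where 5.2% of all tested genes were DEGs higher, 18.8% rose and 18% fell. SAMHD1, a nucleotide triphosphohydrolase, rose from 27.4 ± 5.90 to 84.6 ± 24.5 RPKM (log2 fold change 1.60, adjusted p = 0.00101). PNPT1, a mitochondrial RNA exonuclease, rose from 8.11 ± 1.67 to 19.6 ± 7.52 RPKM (log2 fold change 1.22). RNASEH2A, the catalytic subunit of ribonuclease H2, fell from 28.1 ± 2.52 to 16.9 ± 2.71 RPKM (log2 fold change -0.74, adjusted p = 0.00352), and its partner RNASEH2C fell by 0.57 on the log2 scale. The lysosomal DNase DNASE2 had a log2 fold change of -0.04 (adjusted p = 0.772). The 10 subunits of RNA polymerase III, which can transcribe cytosolic DNA into a DDX58 ligand, held no DEG. By the adjusted p 1 of them rose and 1 fell, each 10% of the list, against 18.8% and 18% of all tested genes. Their log2 fold changes lay between -0.39 and 0.41. Of the abundant ones POLR3K and POLR3G had 0.21 and 0.10 and did not pass the test.

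Of 10 genes that act with or after EIF2AK2 and ZBP1, 9 were tested and 3 were DEGs, all higher, and 4 rose and 1 fell by the adjusted p. The DEGs were 33.3% of the tested genes, against 5.2% of all tested genes called higher. By the adjusted p 44.4% rose and 11.1% fell, against 18.8% and 18% of all tested genes. PPP1R15A, which directs the phosphatase of eIF2α, rose from 13.96 ± 0.84 to 35.5 ± 2.06 RPKM (log2 fold change 1.34, adjusted p = 4.2e-05). DDIT3, a transcription factor of the stress response, rose from 5.04 ± 0.88 to 11.8 ± 3.18 RPKM (log2 fold change 1.19, adjusted p = 0.00294). ATF4 and EIF2S1, the gene of eIF2α, had log2 fold changes of -0.12 and 0.09 and did not pass the test. EIF2AK1, another eIF2α kinase, fell by 0.38 on the log2 scale. MLKL, the executor of necroptosis, rose from 5.89 ± 0.61 to 14.9 ± 3.10 RPKM (log2 fold change 1.31, adjusted p = 0.000517), while RIPK3, the kinase through which ZBP1 acts on it, was listed at 0 in all 6 samples.

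Of the endosomal receptors other than TLR3, TLR8 was listed at 0 in all 6 samples, and TLR7 and TLR9 were at 0 in all samples but 1 of shRNA-UBC9 each. UNC93B1, the chaperone of these receptors, rose by 0.47 on the log2 scale.

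The products of the pathway and the interferon response were 12 genes, of which 9 were tested. Of these 6 were DEGs higher and 7 rose by the adjusted p, and the median log2 fold change was 2.34. The DEGs were 66.7% of the tested genes and 77.8% rose, against 5.2% and 18.8% of all tested genes. CXCL10 and IFNL1 needed their shRNA-UBC9 samples to pass the expression filter, so their place in these counts and in the median is no support. CXCL10, a chemokine, had the largest log2 fold change at 5.55, and other DEGs were IFIT1 at 2.88, IFNL1 at 2.82, ISG15 at 2.34 and IRF9 at 1.52. STAT2, which carries the interferon signal, rose by 0.85 on the log2 scale (adjusted p = 0.0182). The values of CXCL10 and IFNL1 depend on the pseudocount, since both were near 0 in shRNA-NC. IFIT2, an interferon-stimulated gene, had a log2 fold change of 0.07 with overlapping groups (adjusted p = 0.904), and CCL5 had 1.03 and did not pass the test (adjusted p = 0.0586). IFNB1, the interferon that DDX58 and TMEM173 signalling is known to induce, was at 0 in all 3 controls. It measured 0.484, 0.793 and 0.206 RPKM in shRNA-UBC9, or 15, 24 and 5 reads. That is 14.5-fold above a floor of 3 reads over the control group, without the counting error of the knockdown reads. IFNB1 was named after its values were seen, so this ratio is no support. As in DDX58 and IFIH1, replicate 2 was the highest knockdown sample of IFNB1.

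**Figure D4:**
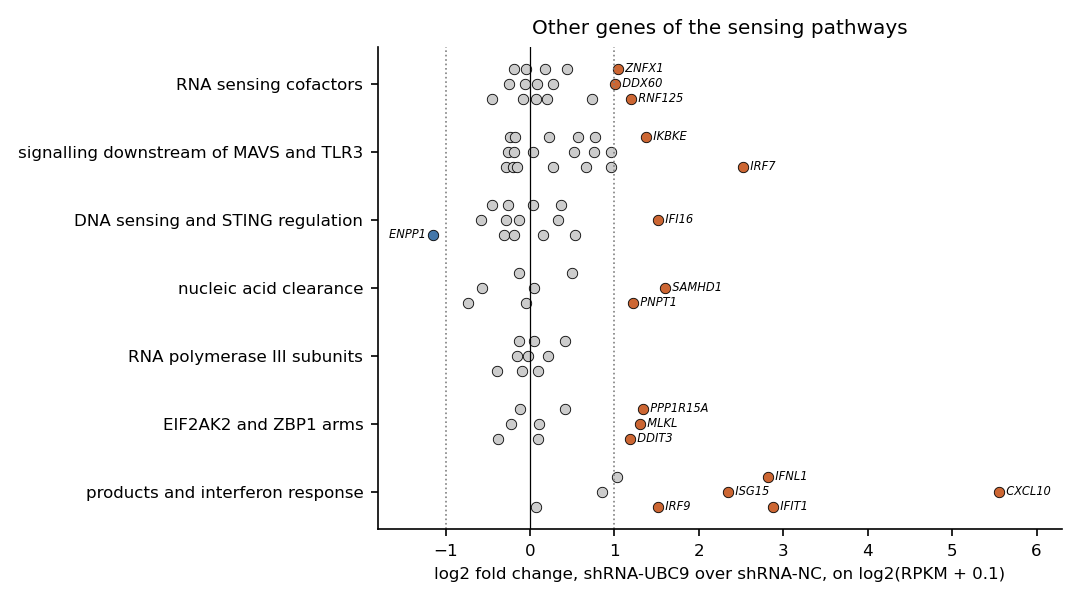
Log2 fold change, shRNA-UBC9 over shRNA-NC on log2(RPKM + 0.1), of tested genes of 7 pathway lists (2 are not drawn), with DEGs in orange (higher) or blue (lower) and by name, other genes in grey, and dotted lines at a size of 1; rows are spread in height for legibility only. Most listed genes lie between the dotted lines, ENPP1 is the DEG that is lower, and CXCL10 lies farthest to the right at 5.55.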

How the data were processed

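Poly(A) RNA of 3 shRNA-NC and 3 shRNA-UBC9 T24 samples had been sequenced from TruSeq libraries. The authors mapped the reads to GRCh38 (hg38 per the labels) in CLC Biomedical Genomics Workbench. What they deposited is 1 RPKM value per sample for each of 58174 genes. The annotation release, the strand setting and the handling of reads with several matches are not given in the sources used here. Genes with at least 0.5 RPKM in at least 3 samples (12428) were compared on log2(RPKM + 0.1) with limma 3.58.1 in R 4.3.3 (eBayes, prior variance following intensity), with Benjamini-Hochberg adjustment over all of them. The step was tested on simulated data of 12428 genes, where it recovered 98% of 100 genes given a log2 change of 1.5 and called 5 unchanged genes. The changed genes were drawn above a minimum control level that TLR3 did not reach, so the test does not cover genes that low. Whole reads of low values were recovered from RPKM and relative depth (within 0.003 of a whole number, as the smallest numbers in those ratios), so the actual reads may be a multiple of them. Absolute depth is unknown, so relative depth was used. A counting interval was computed only where the control reads summed to 1 to 3, which was the case for ZBP1.

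The genes named are the 10 sensors and adaptors, and from each pathway list the DEGs (up to 6) and up to 3 abundant other genes. TICAM1, the genes on opposite strands and genes listed at 0 in shRNA-NC or in most samples were added after their values were seen. Some listed genes are not reported here. The members and lists were chosen with earlier results of these data known. Samples were grouped by their labels. Other pseudocounts, filters, normalizations, variance models and the replicate number as a block were tried, and each sample was left out in turn.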

Additional observations from a re-analysis of the deposited data

How the results depend on the processing

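DDX58, IFIH1, DHX58 and EIF2AK2 remained DEGs in all 15 alternatives, and MB21D1 and TMEM173 kept an adjusted p below 0.05 in all 15, with TMEM173 a DEG in 9 (log2 fold changes 0.90 to 1.08). No result changed direction. For TLR3 the log2 fold change was 0.60 with a pseudocount of 1, 0.87 without an expression filter or without the intensity trend, 0.80 after quantile normalization and 0.78 without both replicates 2, an alternative chosen after seeing the data, all with an adjusted p of 0.0501 to 0.117. Leaving out 1 sample gave 0.57 to 1.10 and lost the call in 4 of 6 cases. TLR3 had no value with a filter of 1 RPKM in all samples, since a control lies below it. For TBK1 it was 0.44 without a filter, without the trend or with the replicate number as a block (adjusted p = 0.0785, 0.053 and 0.0706 by limma), and 0.43 without both replicates 2. Leaving out 1 sample gave 0.30 to 0.53 and lost the call in 4 of 6 cases. MAVS lost its call without both replicates 2 (-0.39), and leaving out 1 sample gave -0.46 to -0.37 and kept it. ZBP1 had a log2 difference of 0.55 with a pseudocount of 1 and 5.02 with 0.01, against 2.28 as reported and 1.60 to 2.69 when 1 sample was left out, and without a filter it passed limma's test (2.28, adjusted p = 0.0326). The DEGs numbered 981, of which 646 were higher and 335 lower. There were 552 with a pseudocount of 1 (391 higher and 161 lower) and 552 with a filter of 1 RPKM in all samples (342 and 210), and 926 to 1065 when 1 sample was left out. Of the sensors and adaptors 4 to 6 were DEGs, and of the pathway genes 14 to 21. The 6 came without an expression filter, where ZBP1, with 1 control read, was also tested. The genes tested change with the filter, so these counts are not comparable as shares. As reported, 55.6% of the tested sensors and adaptors were DEGs, against 7.89% of all tested genes. The pathway counts as reported include RNF125, IFNL1 and CXCL10, which are no support.

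The deviations of same-numbered samples of the groups had correlations of -0.37, 0.07 and -0.17. Between replicate 1 of shRNA-NC and replicate 3 of shRNA-UBC9 the correlation was 0.53. With 3 samples per group such values are too constrained to decide whether the numbers pair the samples. With the block the DEGs numbered 974, and the call of TBK1 alone among the members was lost. The cause of each change was not tested. Depth limits ZBP1, IFNB1 and AIM2, which rest on few reads in shRNA-NC or none.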
